A study of Pyrus ussuriensis with 15 samples.

Results

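The step from day 9 to day 12 of adventitious root development in the pear *Pyrus ussuriensis* Maxim was described from 6 of the 15 deposited mRNA libraries. These are the 3 libraries of day 12 and the 3 libraries of day 9, taken by the day in their labels, and each model's change is day 12 minus day 9. All samples came from buds of 1 pear that had been subcultured for 25 days and were then kept on an MS-based rooting medium that held 30 g/L sucrose and the auxin indole-3-butyric acid (IBA) at 0.5 mg/L, so both days share the same medium and differ in time. No other treatment or genotype is named, and the tissue is labelled as adventitious roots on every sampled day. The other 9 libraries, from days 0, 3 and 6, were used for the shared estimate of the spread and as a view of earlier levels.

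Adventitious roots form from stem or shoot cells and not from the embryonic root. In cuttings and cultured shoots, auxin first sets cells on the path to a root, a primordium with an organised meristem then forms, and the young root grows out of the stem and joins its vessels to those of the shoot. IBA is widely used to root woody plants, and part of it is converted to the native auxin indole-3-acetic acid inside the tissue. Which of these phases day 9 and day 12 represent is not stated in the labels. The deposited table pairs no model with a gene name or function, so known root, shoot or meristem markers could not be checked here, and models are described by their level, length and position. In bulk tissue, fewer cells of a type and less RNA per cell cannot be told apart.

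The depth was 14005330, 11953240 and 15899404 counts in day 9 replicates 1, 2 and 3, and 15354331, 17629444 and 17878524 counts in day 12 replicates 1, 2 and 3. Within a day, log2 CPM (counts relative to the TMM-scaled library total) correlated across models at 0.971 to 0.978 on day 9 and 0.983 to 0.985 on day 12 (Pearson's r), and models are not independent replicates. Pairs of libraries within a day differed by more than counting noise, with a mean chi-square per model from 4.30 to 12.1 where noise alone gives about 1, so none was treated as a repeat of another. The labels do not say that replicates came from separate cultures. The p-values then measure only how far libraries of the same day spread, estimated over all 15 libraries, and that spread may be technical.

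A large part of the measured transcripts differed between the days. Of 29134 tested models, 7699 were higher at day 12, which is 26.4% of those tested, and 6544 were lower, which is 22.5% (edgeR's quasi-likelihood test, Benjamini-Hochberg adjusted p under 0.05, here "called"). At least 2-fold differences were called for 3900 higher models, 13.4% of those tested, and 2855 lower models, 9.80%. Differences of at least 16-fold numbered 272 higher and 103 lower, of which 70 and 7 had no count at all on the lower day, so that their fitted fold depends on the prior count. The median log2 change was 1.01 among the higher models and -0.895 among the lower ones, and 0.0142 over all tested models. All 3 day 12 libraries lay above all 3 day 9 libraries for 7613 of the 7699 higher models, and below them for 6424 of the 6544 lower models. Over all 29134 tested models, day 12 lay wholly above day 9 in 9985 and wholly below it in 9120. The called models were chosen by this contrast, so their separation is a description.

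These calls moved a large part of the library between models. The models called higher held 20.02, 18.61 and 19.11% of all counts in the day 9 libraries and 36.9, 37.7 and 39.4% in the day 12 libraries. The models called lower held 43.5, 45.2 and 44.7% on day 9 and 25.6, 25.2 and 23.8% on day 12. In the 9 libraries of days 0, 3 and 6, the first set held 28.9 to 31.7% and the second 31.2 to 34.9%, between the shares of the 2 later days in both cases. Since the sets were chosen by this contrast, the direction of their shares on days 9 and 12 is a description.

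Length separated the days before any single model was considered. Weighted by counts, the mean model length was 1288, 1290 and 1273 bases in the day 9 libraries and 1532, 1572 and 1638 bases in the day 12 libraries, and the groups did not overlap. The difference was 297 bases (exact permutation test, two-sided, p = 0.1, the smallest that 3 against 3 allows). Models of at most 702 bases took 30.15% ± 0.316 of the counts on day 9 and 20.78% ± 1.23 on day 12, and models of at least 1758 bases took 21.1% ± 0.408 and 30.88% ± 1.57 (SD, n = 3 each; exact permutation test, p = 0.1 for each). On the weighted length, the earlier libraries ran from 1532 to 1628 bases, the range in which 2 of the 3 day 12 libraries also lay. Day 12 replicate 3, at 1638 bases, was above that range, and the day 9 libraries were below it.

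**Figure D1:**
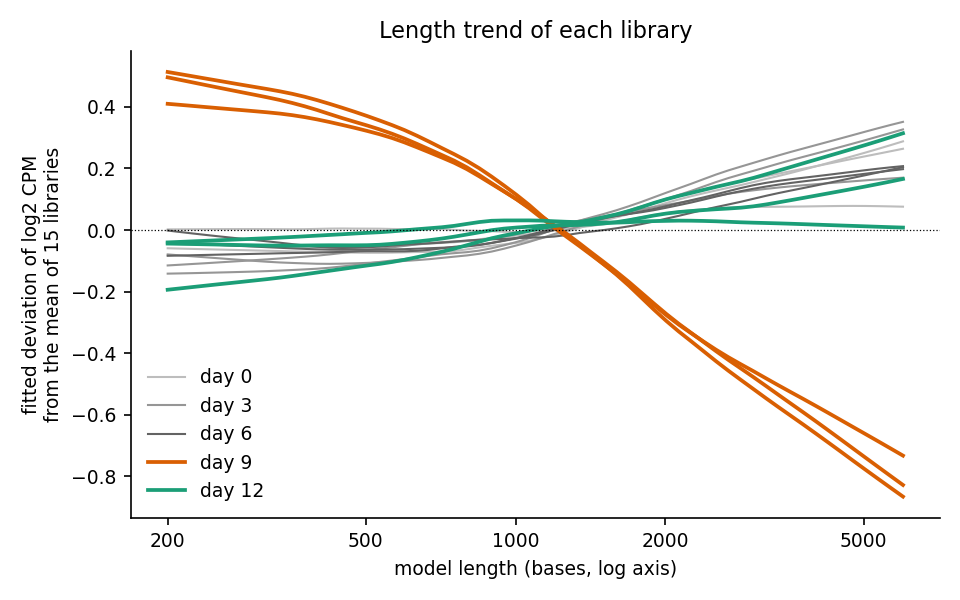
Fitted deviation of log2 CPM from the mean of the 15 libraries (y axis) against model length in bases (log axis), 1 line per library and coloured by day. The 3 day 9 lines run from above 0 for short models to below 0 for long ones, while the day 12 lines lie among or close to those of the earlier days.

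The plot of the fitted trend shows this in each library. At a length of 500 bases the trend stood at 0.323, 0.341 and 0.372 on the log2 scale in day 9 replicates 1, 2 and 3, and at -0.00917, -0.0492 and -0.116 in day 12 replicates 1, 2 and 3. At 4000 bases it stood at -0.620, -0.570 and -0.660 on day 9 and at 0.0178, 0.112 and 0.228 on day 12. At 300, 500, 1000, 2000 and 4000 bases, 1 or 2 of the day 12 libraries lay outside the range of the 9 earlier libraries, by at most 0.0594, while all 3 day 9 libraries lay outside it by at least 0.108. The 3 day 12 libraries thus differed among themselves at the long end, with replicate 1 flattest and replicate 3 steepest, by less than they differed from day 9. Across the 29134 models, the log2 change from day 9 to day 12 had a Spearman correlation of 0.375 with length. It was 0.536 in the most abundant of 3 equal groups of models, 0.433 in the middle group and 0.233 in the least abundant. It was 0.293 in the 5496 models without gaps (in 1 block, where start to end is as long as the model itself) and 0.381 in the 23638 models in several blocks. Models with the Pbr prefix of the reference annotation gave 0.392, and the 1694 tested models without that prefix gave 0.129. These are descriptions across models, which share their libraries.

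The comparison was therefore also made with the length trend taken out of each library. With this adjustment 6441 models were higher at day 12, 22.1% of those tested, and 5749 were lower, 19.7%, by the same edgeR test. At 2-fold or more the counts were 3163 higher, 10.9%, and 2357 lower, 8.09%. Of the 14243 models called without the adjustment, 10035 were called in the same direction with it, 4074 were not called and 134 were called in the opposite direction, and 2021 models were called with the adjustment only. A set of 2783 higher and 1932 lower models was called at 2-fold or more in both fits. The adjustment removes any difference that follows length in all models of a library, whatever its source, and the source of the day 9 trend was not tested.

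The models that changed their call were those at the ends of the length range. The 2020 models that were higher only without the adjustment had a median length of 2355 bases, and their median log2 change went from 0.618 to 0.175. The 2054 models that were lower only without it had a median length of 522 bases, and their median went from -0.632 to -0.266. The 127 models that turned from higher to lower were longer still, with a median of 4110 bases, and the 7 that turned from lower to higher had a median of 345 bases. By contrast, the 5552 models that were higher in both fits had a median length of 1371 bases and the 4483 that were lower in both a median of 990 bases, with median log2 changes of 1.27 and -1.07 without the adjustment.

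**Figure D2:**
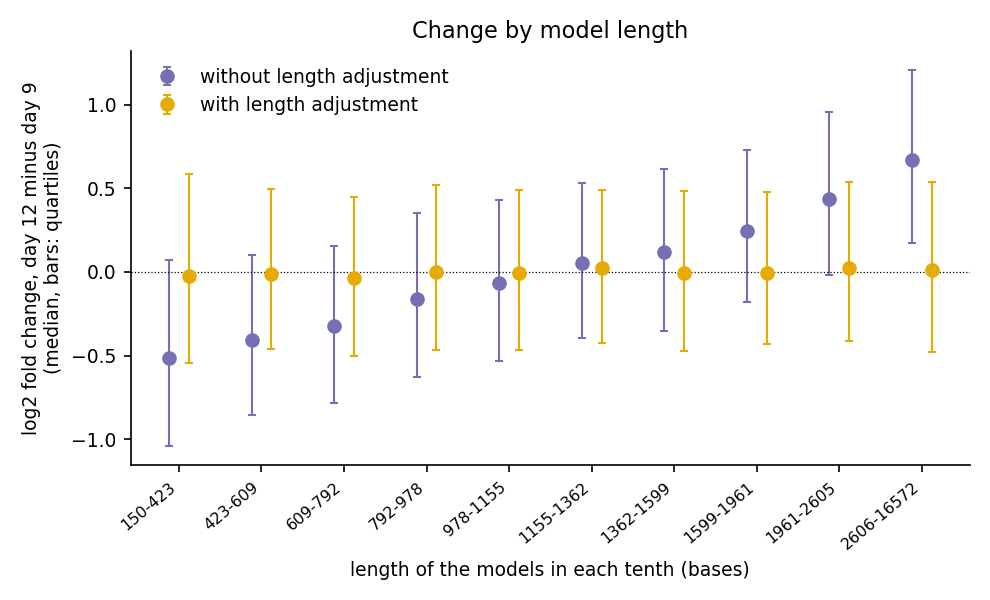
Log2 fold change, day 12 minus day 9 (points, median; bars, lower and upper quartile), for the tested models in 10 groups of rising length, without and with the length adjustment. Without it the medians climb from -0.515 in the shortest group to 0.667 in the longest; with it they lie between -0.0359 and 0.0265.

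Over 10 equal groups of length, the calls without the adjustment went from 354 higher and 1237 lower among models of at most 423 bases to 1739 higher and 194 lower among those of at least 2606 bases. With it the same groups held 608 higher and 544 lower, and 805 higher and 716 lower. The quartiles of the adjusted change were -0.543 and 0.585 in the shortest group and -0.476 and 0.538 in the longest. A median near 0 in each group follows from taking the trend out.

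Among models whose log2 CPM averaged at least 1 over the 6 libraries, the 2 with the largest rise in both fits were near or under 1 CPM at day 9. Pbr025889.1 lies on the plus strand of scaffold413.0 from 290337 to 292090 with a coding length of 537 bases. It had 12, 6 and 5 counts in day 9 replicates 1, 2 and 3 and 2714, 3845 and 4464 counts in day 12 replicates 1, 2 and 3, or 0.587 ± 0.287 and 215 ± 35.0 CPM (SD, n = 3 each). Its 3 day 12 libraries lay far above all others, and its day 9 libraries lay below all 9 earlier ones, which ran from 2.21 to 10.1 CPM. The log2 fold change was 8.52 ± 0.488 without (SE, adjusted p = 4.49e-08, edgeR) and 8.90 ± 0.499 with the length adjustment (adjusted p = 5.43e-08). Per length, the authors' deposited FPKM averaged 1.04 on day 9 and 400 on day 12.

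The next model on the same strand, from 294467 to 297007, moved with it. It had 708, 398 and 524 counts on day 9 and 15641, 18016 and 19718 counts on day 12, a log2 fold change of 4.68 (adjusted p = 7.54e-07, and 2.16e-06 with the length adjustment, edgeR). The following model, on the other strand from 298945 to 303181, was not called, with a log2 change of 0.324 (adjusted p = 0.101). The pair was looked at because it flanks a named model, and what either encodes is not given with the table.

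Pbr002541.1, on the plus strand of scaffold110.0 from 623627 to 624106 with a coding length of 480 bases in 1 block, had 3, 4 and 1 counts on day 9 and 311, 324 and 313 counts on day 12. In CPM this was 0.216 ± 0.147 and 18.8 ± 1.55 (SD, n = 3 each), and the 9 earlier libraries also stayed low, between 0.127 and 0.961 CPM. It thus stood out on day 12 alone, with log2 fold changes from day 9 of 6.47 ± 0.463 (SE, adjusted p = 2.17e-07, edgeR) and 6.87 ± 0.457 with the length adjustment (adjusted p = 2.04e-07). Its neighbour on the same strand, from 627973 to 629119, had no count in any of the 12 libraries before day 12 and 33, 28 and 30 counts in the day 12 libraries. This is at least 23.8-fold higher than day 9, against a floor of 3 counts over the 3 day 9 libraries. The model before Pbr002541.1, on the minus strand from 614745 to 617146, was called in neither fit (adjusted p = 0.196, and 0.226 with the length adjustment, edgeR). Nor was the plus-strand model from 630440 to 632943 (adjusted p = 0.112 and 0.343).

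Falls under the same minimum level were ranked by the smaller of the 2 fitted changes. The 2 models with the largest fall were at 24.9 CPM or more in all 9 libraries of days 0, 3 and 6. Pbr012125.1, on the minus strand of scaffold19.0 from 425787 to 428397 with a coding length of 1899 bases, had 1024, 1270 and 1571 counts on day 9 and 12, 15 and 20 counts on day 12. It went from 97.6 ± 19.2 to 0.919 ± 0.170 CPM (SD, n = 3 each), while the 9 earlier libraries ran from 51.3 to 198 CPM. Its day 9 level lay within the earlier range and its day 12 level far below it. The log2 fold change was -6.71 ± 0.299 (SE, adjusted p = 9.36e-09, edgeR) and -7.01 ± 0.302 with the length adjustment (adjusted p = 9.34e-09). The model before it, from 419259 to 424515, had a log2 change of 0.6 without the length adjustment (adjusted p = 0.000577, edgeR). Its change with the adjustment is a separate value, not given here, and was called (adjusted p = 0.0246, edgeR). The model after Pbr012125.1, from 430186 to 430503, had a log2 change of -1.76 without the adjustment (adjusted p = 0.0462, edgeR). With the adjustment it was not called (adjusted p = 0.147). That model had 5, 10 and 4 counts on day 9 and 4, 1 and 2 on day 12.

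Pbr019638.1, on the minus strand of scaffold3.0 from 366030 to 367751 with a coding length of 777 bases, had 418, 461 and 519 counts on day 9 and 4, 12 and 7 counts on day 12. It went from 35.5 ± 5.27 to 0.446 ± 0.217 CPM (SD, n = 3 each), and the earlier libraries, from 24.9 to 85.1 CPM, again spanned the day 9 level. The log2 fold change was -6.27 ± 0.305 (SE, adjusted p = 1.53e-08, edgeR) and -6.03 ± 0.310 with the length adjustment (adjusted p = 2.72e-08). Both models were highest on day 3, at 180 ± 17.5 and 73.2 ± 10.8 CPM (SD, n = 3 each). Per length, their deposited FPKM averaged 48.8 and 43.4 on day 9 and 0.483 and 0.572 on day 12. The model before Pbr019638.1, from 363412 to 364248, had a log2 change of 0.00189 without the length adjustment (adjusted p = 0.993, edgeR). Its change with the adjustment is a separate value, not given here, and was called (adjusted p = 0.0302, edgeR). The model after Pbr019638.1, from 372339 to 376487, had a log2 change of -0.162 and was called in neither fit (adjusted p = 0.719 and 0.457, edgeR). Farther back on the same strand, the model from 342286 to 345532 had a log2 change of -1.63. It was called in both fits (adjusted p = 0.000711, and 0.000661 with the length adjustment, edgeR).

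**Figure D3:**
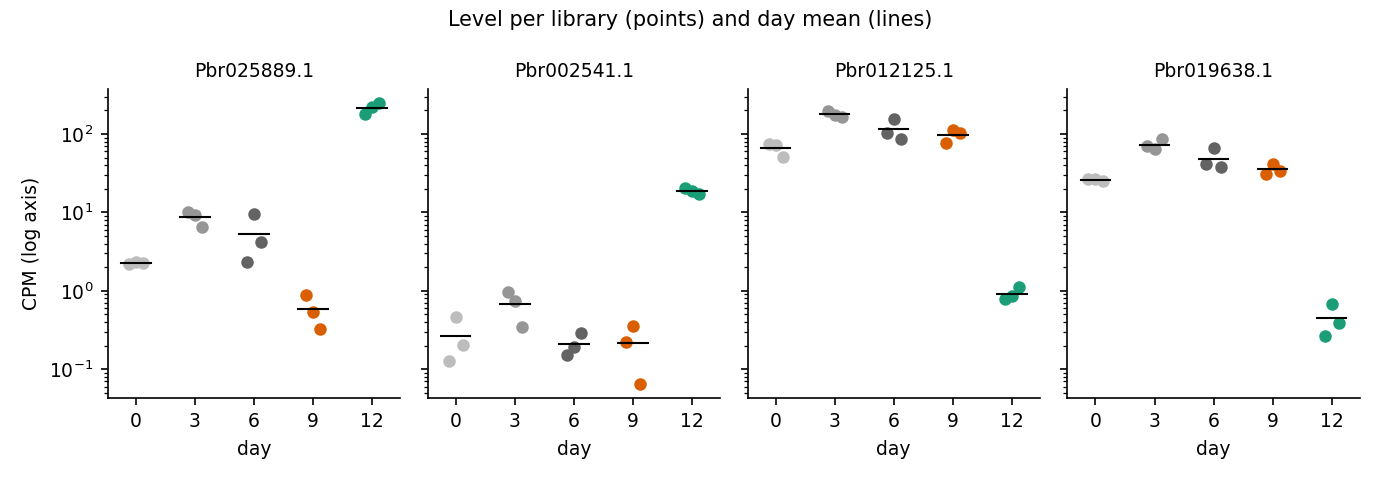
CPM on a log axis by day for the 2 models with the largest rise and the 2 with the largest fall. Models had a mean log2 CPM of at least 1 and were ranked by the smaller of the 2 fitted changes. There is 1 point per library and a line at the day mean. The day 12 points stand apart from those of all earlier days in each panel, and Pbr025889.1 also dips at day 9.

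The 4 models kept their direction and call under each alternative run. Their log2 changes were smaller on the log2(FPKM + 1) scale, which understates the change of low models: 7.64 for Pbr025889.1, 4.83 for Pbr002541.1, -5.05 for Pbr012125.1 and -4.83 for Pbr019638.1 without the length adjustment.

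Among the 10 most abundant models of the 6 libraries, none was called higher at day 12, 7 were called lower and 3 were not called. With the length adjustment 5 were called lower and 5 were not. Over all tested models, 26.4% were called higher and 22.5% lower, or 22.1% and 19.7% with the adjustment. The 10% most abundant models had 963 higher and 970 lower calls, and 660 and 900 with the adjustment. The most abundant model, from 335592 to 336062 on scaffold31.0 (minus strand; coding length, 237 bases), stood at 30087, 31225 and 28409 CPM on day 9 and 17380, 17599 and 13835 CPM on day 12. The groups did not overlap, with a log2 change of -0.88 (adjusted p = 0.00112, edgeR), but with the length adjustment it was -0.34 and not called (adjusted p = 0.102).

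Other abundant models fell in both fits. The model from 150377 to 151197 on the plus strand of scaffold671.0, with a coding length of 522 bases, stood at 4848, 5944 and 4889 CPM on day 9 and at 519, 530 and 447 CPM on day 12. Its earlier libraries held 2811 to 4028 CPM, so day 9 lay above and day 12 below all of them. Its log2 change was -3.39 ± 0.155 (SE, adjusted p = 1.13e-08, edgeR) and -3.00 ± 0.149 with the length adjustment. The model from 896005 to 896280 on the plus strand of scaffold25.0, with a coding length of 276 bases, went from 5541, 5593 and 4966 CPM to 1183, 1135 and 1112 CPM, a log2 change of -2.23 ± 0.138 (adjusted p = 7.49e-08) and -1.71 ± 0.130 with the adjustment. The 100 most abundant models of each library together took 16.96% ± 0.326 of the counts on day 9 and 13.82% ± 0.328 on day 12 (SD, n = 3 each; exact permutation test, two-sided, p = 0.1).

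Models next to each other on a scaffold moved together in several places. Among neighbouring tested models both called at 2-fold or more, 965 of 1568 pairs, or 61.5%, had the same direction, against 53.6% of 972 pairs that lay 10 models apart. With the length adjustment the shares were 63.3% of 1126 pairs and 55.0% of 620 pairs. Over all called neighbours, whatever their size of change, the shares were 53.8% for neighbours and 50.3% at 10 models apart. With the adjustment, neighbours on the same strand shared their direction in 55.5% of pairs, divergent neighbours in 56.8% and convergent neighbours in 56.6%. Pairs overlap in their models, so these shares are descriptions.

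The longest runs of neighbours that were called at 2-fold or more in the same direction in both fits were 5 models for rises and 6 for falls. Runs of at least 4 models numbered 5 in each direction. The 3 longest of each are described, with ties settled by the larger median change. Where not all libraries could be left out without losing a call, this is stated beside the run.

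On scaffold705.0, 5 models between 52399 and 114893, 1 on the plus and 4 on the minus strand, were called higher. The log2 change was 1.23 to 4.61 in the 4 models with counts on both days. Their summed level was 4.40, 5.11 and 5.03 CPM on day 9 and 16.6, 19.6 and 21.5 CPM on day 12, against 18.1 to 27.2 CPM in the earlier libraries. The day 9 libraries thus lay below all others, and the day 12 libraries lay near the lower end of the earlier ones. The model from 105275 to 107093 had no count on day 9 and 11, 11 and 15 counts on day 12, at least 9.69-fold higher. With this model at that bound, the median log2 change of the run was 3.28, and 3.21 with the length adjustment.

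On scaffold52.0, all 4 models listed between 280892 and 298480 were higher at day 12, by 1.83 to 3.49 on the log2 scale in the first 3. The last, from 297640 to 298480, had 1, 0 and 0 counts on day 9 and 9, 16 and 26 on day 12, a ratio of 40.1 with an exact 95% interval for counting error alone of 6.88 to 1614. Their summed level was 7.01, 6.37 and 7.24 CPM on day 9 and 28.3, 33.1 and 33.6 CPM on day 12, and most of it came from the longest model. This longest model, from 291317 to 296063, came back to or near the earlier levels, with 6.12, 5.56 and 6.46 CPM on day 9 and 18.9, 22.3 and 23.4 CPM on day 12 against 20.4 to 30.5 CPM before. The first model, from 280892 to 282634, instead rose above every earlier library, from 0.373, 0.718 and 0.587 CPM on day 9 to 6.44, 6.34 and 6.17 CPM on day 12, where earlier libraries held at most 1.65 CPM.

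On scaffold81.0, 4 tested models between 795321 and 824725 were higher by 1.36 to 2.55, with a summed level of 30.9, 23.6 and 23.9 CPM on day 9 and 107.3, 94.2 and 123 CPM on day 12. The model from 822592 to 824725 had 0.986, 0.571 and 3.50 CPM in day 12 replicates 1, 2 and 3, so its rise rested mainly on replicate 3. Without day 12 replicate 3 or day 9 replicate 2, 3 of these 4 models were called in each fit, and without day 9 replicate 1 also 3 with the length adjustment.

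In their summed level, the falling runs had another course. On scaffold389.0, 6 minus-strand models between 350846 and 426635, each 633 to 660 bases long, had log2 changes of -3.59 to -1.95. Their summed level was 535, 644 and 630 CPM on day 9 and 94.2, 85.9 and 85.0 CPM on day 12. In this sum the day 12 libraries lay below all earlier ones. The day 0 libraries held 245, 225 and 310 CPM and those of days 3 and 6 held 501.3 to 681.5 CPM. Not every member went below its earlier range. The model from 350846 to 351505 held 2.91 to 3.61 CPM on day 12, against 1.85 to 10.8 CPM in the earlier libraries. The model from 404268 to 404900 held 23.8 to 29 CPM, against 14.9 to 158 CPM. In the other members day 12 lay below all earlier libraries. Whether the 6 models, of near-equal length, share reads was not tested, so the split of counts among them is uncertain. All 6 were called in both fits with any of the day 9 or day 12 libraries left out.

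On scaffold890.0, the 6 plus-strand models listed between 16487 and 43873 fell in common, with log2 changes of -2.17 to -1.16. Their summed level was 704, 842 and 662 CPM on day 9 and 220, 225 and 211 CPM on day 12, and the 9 earlier libraries held 436 to 1112 CPM. The model from 25586 to 26188 stayed within its earlier range of 3.16 to 23.4 CPM, with 10.1 to 10.9 CPM on day 12. In the other members of this run day 12 lay below all earlier libraries. With single libraries left out, 5 or 6 of the 6 were called. On scaffold16.0, the 4 models listed between 135110 and 146587 were lower by -3.51 to -2.17, with a summed level of 87.0, 89.5 and 80.9 CPM on day 9 and 18.67, 15.98 and 18.44 CPM on day 12. There the earlier libraries held 35.62 to 75.35 CPM, so in the sum day 9 lay above and day 12 below all of them. Most of the sum came from the model from 135110 to 135511, at 73.6 CPM on day 9. The model from 141287 to 143234 held 0.914 to 2.87 CPM on day 9, within its earlier range of 0.886 to 5.17 CPM. The model from 146227 to 146587 held 6.04 to 9.87 CPM on day 9, and its earlier libraries reached 8.81 CPM.

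**Figure D4:**
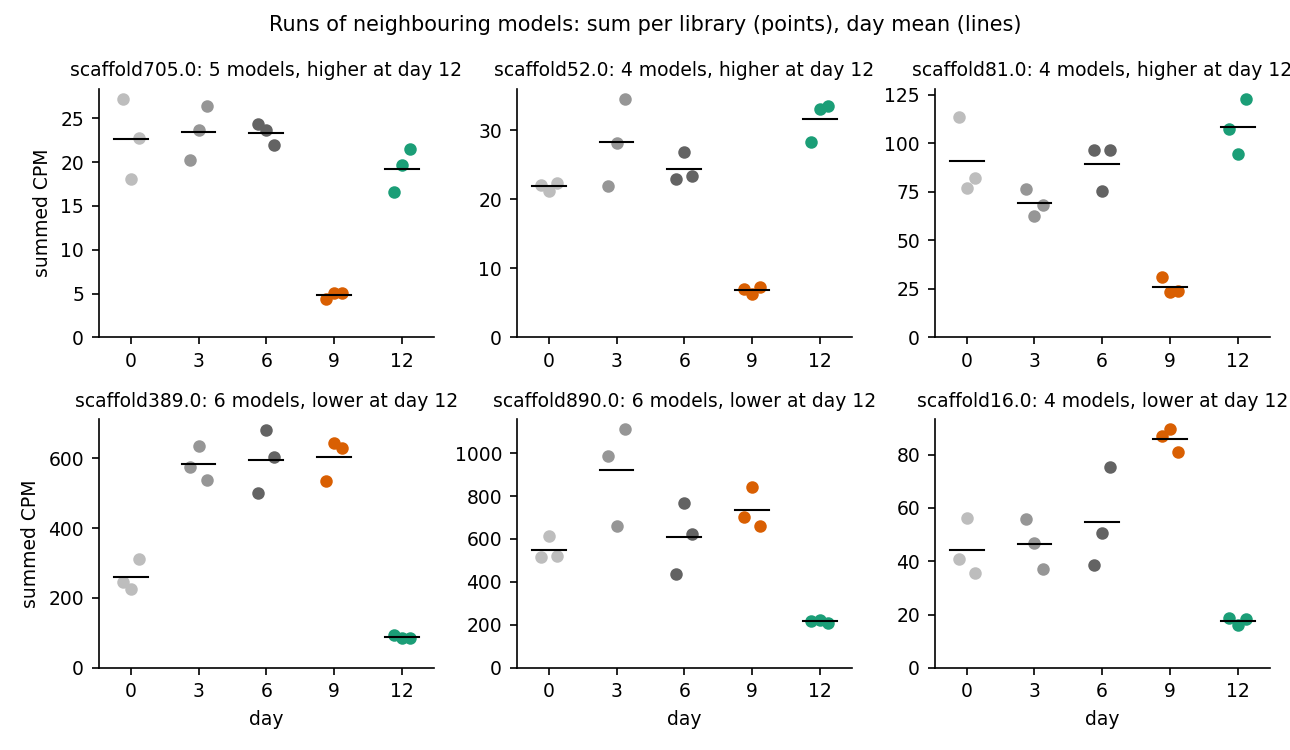
Summed CPM of each run of neighbouring models by day (points, libraries; lines, day means), with a separate axis from 0 in each panel. In the 3 upper panels the day 9 points lie below all others; in the 3 lower panels the day 12 points do.

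The libraries of days 0, 3 and 6 are not part of the contrast and show on which day a level left the earlier range. Of the 7699 models higher at day 12, 4056, or 52.7%, had all 3 day 9 libraries below all 9 earlier libraries and day 12 not wholly outside their range. Another 1437, or 18.7%, had day 9 not wholly outside the range and all 3 day 12 libraries above it, and 410 went from below the range to above it. Of the 6544 lower models, 2862, or 43.7%, had day 9 above the range and day 12 not outside it, 1214, or 18.6%, had day 12 alone below it, and 262 went from above to below. Among the 14891 models not called, 80.1% had neither day outside the range. In these, day 9 alone was below the range in 3.22% and above it in 4.32%, and day 12 alone was above it in 3.74% and below it in 2.39%. The called models were chosen by their day 9 and day 12 levels, so their shares are descriptions.

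With length-adjusted levels and calls, the share set apart by day 9 alone was 44.4% of the 6441 higher and 35.4% of the 5749 lower models, and the share set apart by day 12 alone was 24.5% and 23.6%. Of the 16944 models not called there, day 9 alone was below the range in 2.67% and above it in 3.63%. Day 12 alone was above it in 4.14% and below it in 2.56%. In distance from the mean of days 0, 3 and 6 on the log2(CPM + 0.5) scale, the higher models had medians of -0.663 at day 9 and 0.131 at day 12, and the lower models had 0.577 and -0.210. Day 9 was the farther of the days for 72.5% of the higher and 67.1% of the lower models, against 63.1% of all tested models. With the adjustment these shares were 64.0, 59.4 and 57.4%. The models called with the adjustment, which are a different set, had day 9 medians of -0.531 for the higher and 0.452 for the lower models. Their day 12 medians were 0.2 and -0.272. In both settings, day 9 lay farther out in more models than day 12 did.

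**Figure D5:**
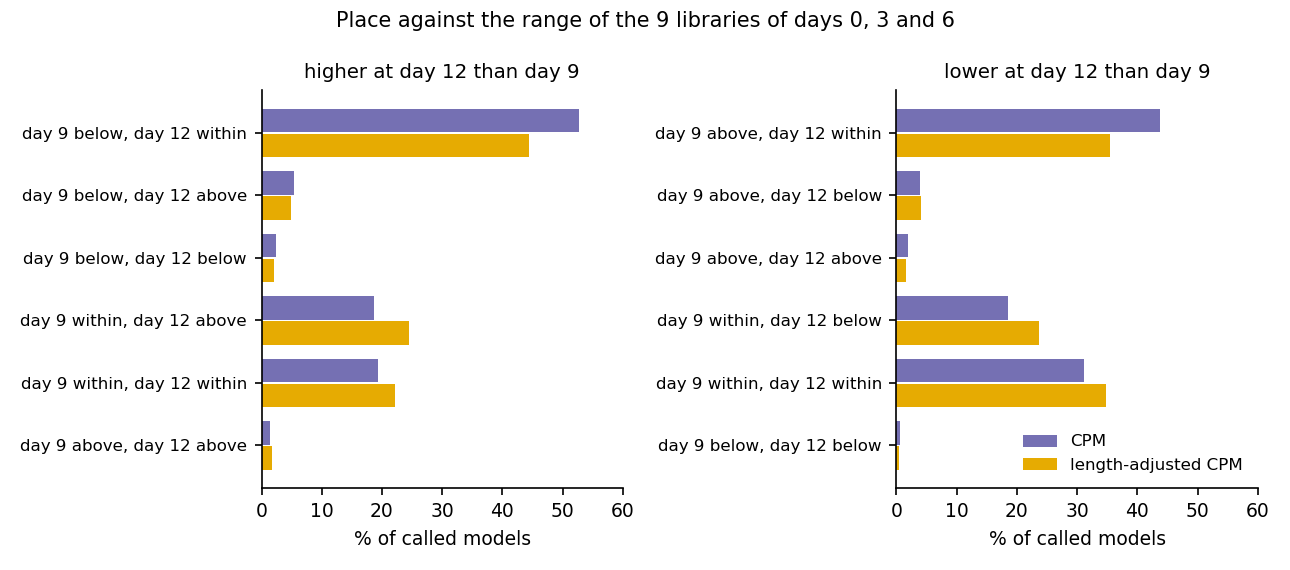
Share of the called models (x axis, %) by where their 3 day 9 and 3 day 12 libraries lay against the range of the 9 libraries of days 0, 3 and 6, for models higher (left) and lower (right) at day 12. The longest bars are models outside the range on day 9 and not on day 12, at 52.7 and 43.7% without and 44.4 and 35.4% with the length adjustment.

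Models with any count on only 1 of the days numbered 1579 for day 12 and 1242 for day 9. A total of 51 models had no count in any day 9 library and at least 10 counts in each day 12 library, while 3 models did the opposite. The day 12 libraries are the deeper ones on average, so a fixed count favours them: with the minimum set at 0.896 CPM in every library, an alternative chosen after seeing the data, the numbers were 26 and 1. Of the 51, 47 passed the filter and 46 of these were called in each fit, which selecting on the same counts makes likely. Against a floor of 3 counts over a day, the 51 were at least 9.17-fold to 90.9-fold higher, with a median bound of 15.5. The 3 opposite models were all called without the length adjustment, and 2 of them with it. Only 7 of the 51 had no count in any of the 9 earlier libraries, 31 had fewer than 10 counts there in total, and 13 had counts in every earlier library. Most of these models were thus barely seen before day 12, while a smaller set dropped out on day 9 and came back.

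The largest of them, from 379299 to 379829 on the minus strand of scaffold175.0, is 1 block of 531 bases. It had 116, 121 and 110 counts on day 12, none on day 9 and 3 in the 9 earlier libraries together. The model from 765878 to 767491 on scaffold13.0, in 1 block of 1614 bases, had 96, 93 and 100 counts on day 12 and 1 count in all 12 libraries before, at least 75.7-fold higher than day 9. The model from 71048 to 72440 on scaffold603.0 had 100, 82 and 100 counts on day 12 and 8 counts in the earlier libraries, at least 73.9-fold higher than day 9. It lies near the model from 63554 to 64892 on the same strand, which had rank 3 under the rule for the largest rises with a log2 change of 6.03.

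Of the 3 models that were lost at day 12, the model from 586198 to 587724 on scaffold98.0 had 13, 24 and 33 counts on day 9. Before that it had 55 counts in day 0 replicate 2 and none in the other 8 earlier libraries. The model from 120776 to 121612 on scaffold932.0 had 23, 11 and 10 counts on day 9 and counts in all 9 earlier libraries. With so few reads, a level of 0 on day 12 says only that these models were not detectable at this depth.

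Groups formed from the table's own columns differed from all models in their share of rises. The length adjustment narrowed this for the groups by block and gap length, and widened it for the most and least abundant models. Of the called models in 1 block, 1058 rose and 1624 fell, so that 39.4% were rises against 54.1% over all models, with a median log2 change of -0.237 against 0.0142. With the length adjustment the share was 45.6%, 1068 higher and 1272 lower, against 52.8%, and the median was -0.111 against -0.00232. Among models in several blocks, the 5915 with the longest gaps (at least 2590 bases in all) had 2527 rises and 721 falls, or 77.8% rises. With the adjustment these were 1590 and 1108, or 58.9% rises. The 5916 with the shortest gaps (at most 726 bases) were at 41.9% and 47.4%. These groups also differ in length, with medians of 807 bases for models in 1 block, 1773 for the longest gaps and 922.5 for the shortest.

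The 1694 tested models without the Pbr prefix, of 1869 listed, had 422 higher and 478 lower calls, or 46.9% higher, and 391 and 459, or 46.0%, with the adjustment. Their median log2 change was -0.175 without and -0.174 with it, which hides a turn in its length trend. The Spearman correlation of its change with length went from 0.129 to -0.127, so the trend fitted over all models did not match that of this group. At 2-fold or more, 34.2% of them were called against 23.2% of all models. The 10% most abundant models had 963 higher and 970 lower calls, 66.4% called against 48.9% of all models. With the adjustment they had 660 and 900, 53.6% against 41.8%. The 10% least abundant had 499 and 306, or 27.6% called, and 512 and 226, or 25.3%, with it. Of 102 tested models that overlap a model on the other strand, 42 were higher and 22 lower, 62.7% called, and with the adjustment 34 were higher and 30 lower. Since the use of strand in counting is not stated, reads of such partners cannot be told apart.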

How the data were processed

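The authors deposited 1 table that lists 44681 gene models by place and length, and holds 2 columns for each library, counts and FPKM. The counts are whole numbers per model without normalization, per the file headers, and the deposited FPKM values are the authors' scaling of them to length and library total. The series' design text names *Pyrus bretschneideri* as the genome for the comparison of reads, and HISAT is listed per the submitters' processing notes. Not given in the sources used here were the version of HISAT, the genome build, how reads were counted, whether strand was used, and what was done with reads of more than 1 origin, so near-identical models may share reads. Models with the Pbr prefix have coding lengths.

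Counts were fitted with edgeR 4.0.16 in R 4.3.3 over all 15 libraries: filterByExpr, TMM, glmQLFit and glmQLFTest with the contrast day 12 minus day 9, 10 residual degrees of freedom, and Benjamini-Hochberg adjustment over 29134 models. For the length adjustment, a lowess curve (span 0.3) of each library's log2 CPM deviation on log2 length was added to the offsets. An SE is the log2 change divided by the square root of F. Named models were called in both fits, had a mean log2 CPM of at least 1 over the 6 libraries and non-overlapping days, and were the 2 largest changes per direction, ranked by the smaller of the 2 fitted changes. Models identified by position only were taken by abundance, neighbourhood or absence on 1 day. Runs needed at least 4 neighbouring tested models. Lists, groups and rules were chosen with earlier results of these data known. Gene lists by function were planned for named genes and could not be formed. DESeq2 1.42.0 and limma 3.58.1 served as alternatives. Both fits were tested on simulated data. Floors cover counting error only.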

Additional observations from a re-analysis of the deposited data

How the results depend on the processing

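Counts of called models were within 1.5 times of those reported under each alternative to both fits, except that at an adjusted p under 0.01 the lower models with the length adjustment numbered 3622. Without the adjustment the range was 5854 to 8401 higher and 4455 to 8121 lower, and the fit on only the 6 libraries of days 9 and 12 called 8380 and 8121, or 7494 and 7443 with the adjustment. Leaving out single libraries gave 6635 to 7045 higher and 5159 to 5901 lower, and 5402 to 5769 and 4367 to 5000 with the adjustment. Upper-quartile scaling gave 7317 and 6907, DESeq2 7726 and 6973, and limma on log2(FPKM + 1) 8322 and 5704. No call of the unadjusted fit turned direction under these alternatives; with the adjustment 6 did with limma and 1 did with the trend from bin medians.

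The structural counts that moved with the length adjustment were 1448 higher and 1355 lower for the shortest models (856 and 2894 without), 1849 and 1601 for the longest models (3615 and 583 without) and 1590 and 1108 for the longest gaps. Same-numbered libraries of days 9 and 12 did not deviate together (r from -0.0257 to -0.000806 across models), so the numbers do not pair them. With a replicate block the calls were 7605 higher and 6442 lower, and 6341 and 5663 with the length adjustment. In the run on scaffold705.0, 1 of 5 models, in that on scaffold52.0, 1 of 4, and in that on scaffold81.0, 1 of 4 did not pass the filter of the 6-library fit; the others were called there. With limma on log2(FPKM + 1) and the length adjustment, 3 of the 5 models on scaffold705.0 and 3 of the 4 on scaffold81.0 were called. With an equal minimum CPM in place of 10 counts, models absent on 1 day numbered 26 and 1 in place of 51 and 3. Depth limits models near 0 counts, whose fitted folds depend on the prior count.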
